A study of Homo sapiens with 6 samples.

Results

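The fatty acid elongases and desaturases were followed in HepG2 cells, a human hepatoblastoma line used as a model of hepatocytes, as 10 genes: the elongases *ELOVL1*, *ELOVL2*, *ELOVL4*, *ELOVL5*, *ELOVL6* and *ELOVL7*, the desaturases *FADS1*, *FADS2* and *FADS3*, and the stearoyl-CoA desaturase *SCD*. They were chosen by name, and a gene counted as measured where the exon array had a transcript cluster (the probe sets of 1 gene) annotated with its symbol alone. This held for 8 of the 10 genes, 4 elongases and 4 desaturases, among 12797 such clusters and 12676 genes. *ELOVL5* had only a cluster shared with a pseudogene, and no cluster of the annotation used here carried the symbol of *ELOVL7*. The 3 treated samples received 10 µM atorvastatin, given as the water-dissolved (3S, 5S) sodium salt, for 24 h, and the 3 control samples received none. Cells of both groups were in medium with 3 mg/mL lipoprotein deficient serum in place of fetal bovine serum, so both groups were lipoprotein deprived. All samples were wells of this line, which is derived from a tumour, and although the study calls the samples biological replicates, nothing states that the wells came from separate cultures. The *p*-values therefore measure the spread between these samples, which may be technical.

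Elongases of the ELOVL family carry out the condensation that starts each round of chain lengthening in the endoplasmic reticulum, joining an acyl-CoA with malonyl-CoA. Desaturases insert double bonds with electrons passed from cytochrome b5. ELOVL6 lengthens palmitate to stearate, and SCD turns these saturated chains into monounsaturated ones. FADS2 and FADS1 are the delta-6 and delta-5 desaturases of polyunsaturated fatty acid synthesis, and ELOVL2 and ELOVL5 lengthen polyunsaturated chains. Several of these genes are known targets of SREBP-1c and LXR in liver. Statins inhibit HMG-CoA reductase, and sterol depletion activates SREBP processing.

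The bases before the transcription start are shown for the genes that stood apart between the groups (*ELOVL6*, *FADS1*, *FADS2*), for *FADS3*, their neighbour in the FADS gene cluster, and for *SCD*. Each run is the 250 bases before a start of the gene, 5′ to 3′ on its own strand, from RefSeq on GRCh38.p14. Capitals mark CCAAT or ATTGG (the NF-Y box on either strand) and GGGCGG or CCGCCC (the Sp1 box on either strand).
*ELOVL6* (chr4:110198616-110198865, minus strand): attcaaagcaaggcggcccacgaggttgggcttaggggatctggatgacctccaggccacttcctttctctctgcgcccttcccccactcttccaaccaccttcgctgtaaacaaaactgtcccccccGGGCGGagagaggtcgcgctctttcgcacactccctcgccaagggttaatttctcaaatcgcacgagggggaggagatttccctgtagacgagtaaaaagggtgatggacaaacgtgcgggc
*FADS1* (chr11:61817004-61817253, minus strand): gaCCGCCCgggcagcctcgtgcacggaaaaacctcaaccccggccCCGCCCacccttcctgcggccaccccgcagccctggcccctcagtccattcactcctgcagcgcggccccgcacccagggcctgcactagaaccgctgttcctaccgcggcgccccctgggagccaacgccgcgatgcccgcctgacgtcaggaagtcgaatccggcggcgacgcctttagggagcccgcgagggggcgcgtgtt
*FADS2* (chr11:61815953-61816202, plus strand): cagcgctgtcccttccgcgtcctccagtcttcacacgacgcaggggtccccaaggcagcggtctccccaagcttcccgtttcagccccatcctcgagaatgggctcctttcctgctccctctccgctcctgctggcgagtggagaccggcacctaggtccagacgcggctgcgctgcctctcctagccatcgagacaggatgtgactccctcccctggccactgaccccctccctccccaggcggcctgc
*FADS3* (chr11:61891546-61891795, minus strand): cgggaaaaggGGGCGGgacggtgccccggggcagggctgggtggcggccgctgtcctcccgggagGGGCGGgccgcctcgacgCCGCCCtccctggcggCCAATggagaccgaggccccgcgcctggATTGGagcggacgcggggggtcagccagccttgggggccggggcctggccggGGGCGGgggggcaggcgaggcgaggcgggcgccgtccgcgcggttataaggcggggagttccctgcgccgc
*SCD* (chr10:100346983-100347232, plus strand): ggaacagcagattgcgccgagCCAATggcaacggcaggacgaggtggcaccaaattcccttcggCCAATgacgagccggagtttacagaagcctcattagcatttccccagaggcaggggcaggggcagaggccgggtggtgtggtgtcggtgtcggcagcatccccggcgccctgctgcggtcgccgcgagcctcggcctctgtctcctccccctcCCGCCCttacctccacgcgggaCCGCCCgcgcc

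All 10 genes had a window of 300 bases, from 250 before to 50 after a start, and *FADS2* had a pair of overlapping windows, which makes 11. A sterol regulatory element, the site bound by SREBP, was searched as TCACNCCAC or its reverse complement GTGGNGTGA, and none of the 11 windows held it, against 1.13% of all 35116 windows. With so low a share, absence from 11 windows does not set these genes apart. Other forms of the element were not searched. The NF-Y box was in 6 of the 11 windows, against 34.6% of all windows, and the Sp1 box in 9, against 45% of all. The Sp1 box is made of G and C alone. The G and C content of the 11 windows was 57.3% to 83.7%, against a median of 58.7% over all windows. Only *ELOVL5* and *ELOVL6* were below that median, and the shares were not adjusted for this. In *ELOVL1* a CCAAT box shared bases with an Sp1 box. The *FADS3* window held 2 NF-Y and 5 Sp1 boxes and the *ELOVL6* window 0 and 1. Of the *FADS2* windows, the one whose upstream bases are shown held neither box, and the other held 1 of each. These counts describe letters only, and starts of these genes outside the windows were not searched.

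RMA log2 values, 1 per cluster and array, were fitted in limma. The replicate number entered as a block, since the methods of the study name a paired test. Adjusted *p*-values are Benjamini-Hochberg over all 12797 clusters, and a cluster with a mean log2 value under 6 was taken as dim. Array medians ranged from 6.66 to 6.72, and any pair of arrays correlated with a Pearson coefficient between 0.99 and 0.997 across clusters. All 9 measured hepatocyte and hepatoma markers, such as *ALB* and *AFP*, were above the dim level (mean log2 values 9.42 to 12.26), whereas all 5 endothelial markers, 3 of 6 fibroblast markers and 2 of 3 leukocyte markers were dim. The mean over the hepatocyte markers was 10.95 to 11.04 in treated arrays and 10.95 to 11.24 in control arrays. Of the 9, 7 were lower on average in treated cells, as were 5651 of all 12797 clusters. *APOH*, an apolipoprotein, was lower on every treated array than on any control array, as were 2.68% of all clusters. Treated minus control in replicates 1 to 3 was 0.14, −0.08 and −0.26 for *ALB*, and −0.08, −0.05 and −0.33 for *APOH*. The order of the control arrays is described below. The part of these marker differences in the results below was not tested. In such samples, fewer expressing cells and less RNA per cell cannot be told apart.

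In treated cells 3 of the 8 measured genes, *ELOVL6*, *FADS2* and *FADS1*, lay above every control array, but none passed the correction over all clusters. The count at an adjusted *p* under 0.05 was 0 of 8 with limma and the block, as over all clusters (0 of 12797, 0%), and 3 of the 8 genes had an unadjusted *p* under 0.05, all higher, against 0.75% of all clusters. Arrays that did not overlap, with treated above control, were seen in 3 of 8 genes against 4.57% of all clusters, and with treated below control in 0 of 8 against 2.68%. A mean difference of at least 1.2-fold upwards was found in the same 3 genes and in 0.906% of all clusters. The median log2 difference was 0.15 over the 8 genes, 0.11 over the 4 elongases, 0.21 over the 4 desaturases and 0.01 over all clusters. Since the genes were proposed with results of these arrays known, these counts and medians are a description.

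**Figure D1:**
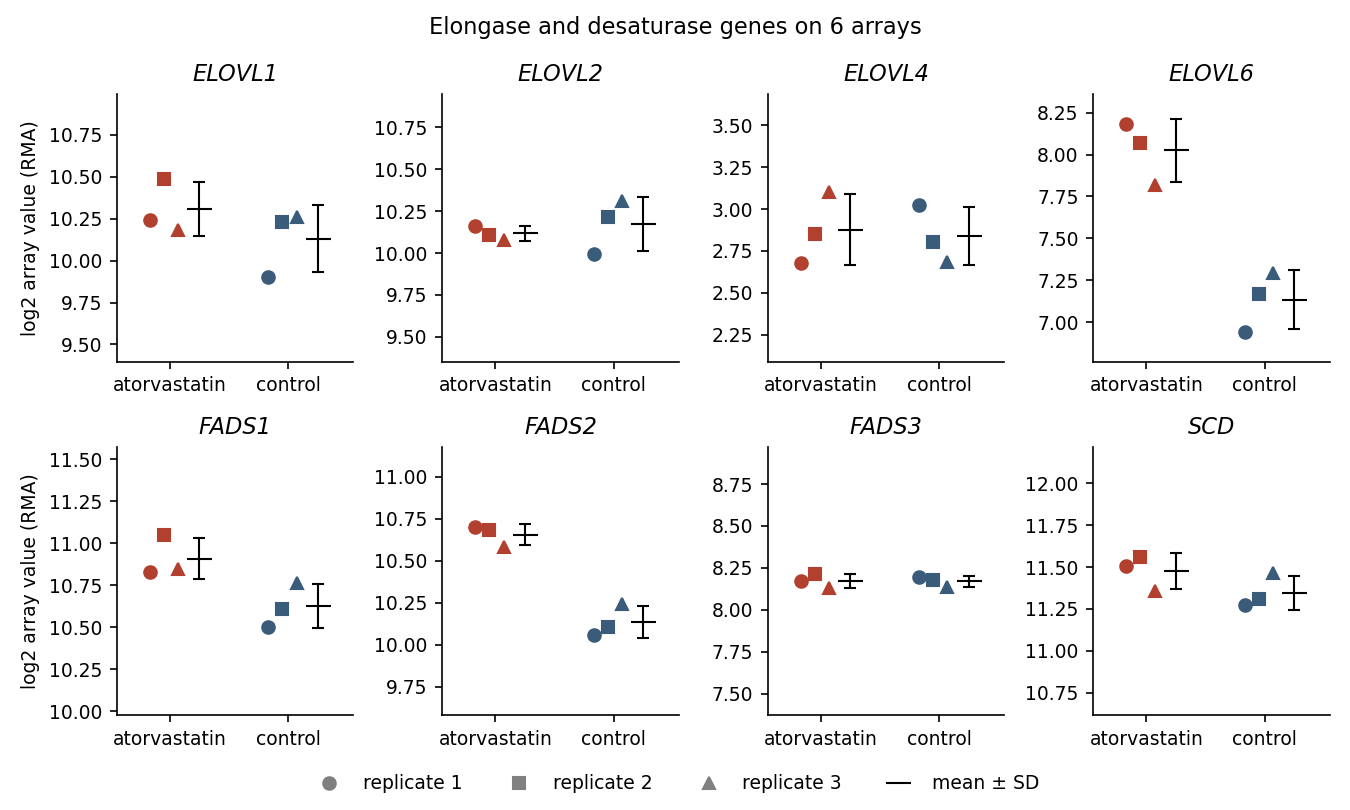
Log2 array values (RMA) of the 8 measured genes, with a point per array (shape gives the replicate number), atorvastatin left of control, bars giving mean ± SD (n = 3 each); every panel spans the same height in log2 units. *ELOVL6*, *FADS1* and *FADS2* have no overlap between the groups, and *FADS3* shows the narrowest spread.

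Among the elongases, *ELOVL6* had the largest difference. Its log2 values were 8.18, 8.07 and 7.82 in treated cells, against 6.94, 7.17 and 7.30 in control cells. The lowest treated array stood 0.52 above the highest control array. The means were 8.02 ± 0.19 in treated and 7.14 ± 0.18 in control cells (SD, n = 3 each), a 1.85-fold difference (95% confidence interval, CI, 1.45 to 2.36). This was the third largest increase of the 12797 clusters, yet its adjusted *p* was 0.886 with limma and the block. Permuting the 6 arrays exactly (two-sided), without regard to the replicate number, gave *p* = 0.1, the lowest value open to 3 against 3 arrays. The adjusted *p* of *ELOVL6* was 0.119 without the block, where 0.0313% of clusters passed and no elongase or desaturase did, and 0.00807 with a trended and robust variance, where 0.164% passed. Without replicate 1 the log2 difference was 0.71 (adjusted *p* = 0.0173), without replicate 2 it was 0.88 (0.216), and without replicate 3 it was 1.07 (1.29e-11), against 0.89 with all arrays. In the fits without replicate 2 and without replicate 3 every gene had the same standard error, so the *p* there followed size alone.

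*ELOVL1*, which acts on saturated and monounsaturated very long chains, overlapped between the groups. Its log2 values were 10.24, 10.49 and 10.19 in treated cells, against 9.90, 10.23 and 10.26 in control cells. The first control array alone lay well below the others. The log2 difference was 0.17 (95% CI −0.10 to 0.45, adjusted *p* = 1 with limma). It was 0.091 without replicate 1, 0.13 without replicate 2 and 0.30 without replicate 3, and 0.060 without the block and control replicate 1.

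*ELOVL2*, an elongase of polyunsaturated chains that is used in the synthesis of docosahexaenoic acid, was the 1 measured gene with a lower mean in treated cells. Its log2 values were 10.16, 10.11 and 10.08 in treated cells and 9.99, 10.21 and 10.31 in control cells. The treated arrays lay within the range of the control arrays. The log2 difference was −0.06 (95% CI −0.32 to 0.21, adjusted *p* = 1), and it was −0.17 without replicate 1, −0.030 without replicate 2 and 0.030 without replicate 3. *ELOVL4*, which makes very long chains in retina, brain and skin, was dim on every array. Its log2 values were 2.68, 2.85 and 3.10 in treated cells and 3.03, 2.80 and 2.68 in control cells. At this level the ranges nearly coincided, and the log2 difference of 0.04 (95% CI −0.33 to 0.40, adjusted *p* = 1) was 0.23 when replicate 1 was dropped, 0.034 without replicate 2 and −0.15 without replicate 3.

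Of the FADS genes, which lie beside each other on chromosome 11, *FADS2* had the largest log2 difference and *FADS3* the smallest, and none passed the correction in the fit with the block. *FADS2* had log2 values of 10.70, 10.68 and 10.58 in treated cells, against 10.06, 10.10 and 10.24 in control cells. Every treated array was at least 0.34 above every control array. The means were 10.66 ± 0.063 in treated and 10.14 ± 0.096 in control cells (SD, n = 3 each), a 1.43-fold difference (95% CI 1.21 to 1.70) and the 12th largest increase of all clusters. Its adjusted *p* was 1 with the block, 0.139 without it and 0.00847 with a trended and robust variance. When replicate 1 was dropped, the log2 difference of *FADS2* was 0.46 (adjusted *p* = 0.263), without replicate 2 it was 0.49 (1) and without replicate 3 it was 0.61 (0.00397), against 0.52 with all arrays. As for *ELOVL6*, the *p* without replicate 2 and without replicate 3 followed size alone, since every gene had the same standard error there. The exact permutation test, two-sided, gave the smallest *p* possible, 0.1.

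*FADS1* had log2 values of 10.83, 11.05 and 10.85 in treated cells, against 10.50, 10.61 and 10.76 in control cells. The groups were apart by only 0.07, between the first treated and the third control array. The means were 10.91 ± 0.12 in treated and 10.62 ± 0.13 in control cells (SD, n = 3 each), a 1.22-fold difference (95% CI 1.02 to 1.46, adjusted *p* = 1 with limma, exact two-sided permutation *p* = 0.1). The log2 difference was 0.28 with all arrays, ranged from 0.21 without replicate 2 to 0.38 without replicate 3, and passed the correction in none of the limma alternatives (smallest adjusted *p* = 0.560).

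*FADS3*, whose enzyme desaturates sphingoid bases, had nearly equal values. It had log2 values of 8.17, 8.22 and 8.13 in treated cells and 8.20, 8.18 and 8.14 in control cells. The means were 8.17 ± 0.044 in treated and 8.17 ± 0.031 in control cells (SD, n = 3 each). The log2 difference was 0.0016, with a 95% CI from −0.22 to 0.22 that leaves room for changes of up to 0.86-fold and 1.17-fold.

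Since each gene is read by probes of its own, the genes were set against each other only as differences within an array, over 3 pairs of genes. The value of *FADS2* minus *FADS3* was 2.53, 2.47 and 2.46 in treated arrays and 1.86, 1.93 and 2.11 in control arrays. The difference between the groups was 0.52, and no array of one group reached the other. *FADS1* minus *FADS3* differed by 0.28 between the groups, with 2.66, 2.83 and 2.72 in treated and 2.31, 2.43 and 2.63 in control arrays. *FADS1* minus *FADS2* was lower in treated arrays by a log2 difference of −0.24, with 0.13, 0.36 and 0.26 in treated and 0.44, 0.50 and 0.52 in control arrays. Each of the 3 pairs gave *p* = 0.1 in an exact permutation test, two-sided, which is the smallest possible (adjusted *p* = 0.1 over 3 pairs). This exact test took no account of the replicate number. It cannot go below 0.1 with 3 against 3 arrays, and no other test of these contrasts was run. The 3 contrasts are not separate results, since any pair of them fixes the last. *FADS3* itself differed by only 0.0016, so the contrasts with it largely repeat the differences given above for *FADS1* and *FADS2*.

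**Figure D2:**
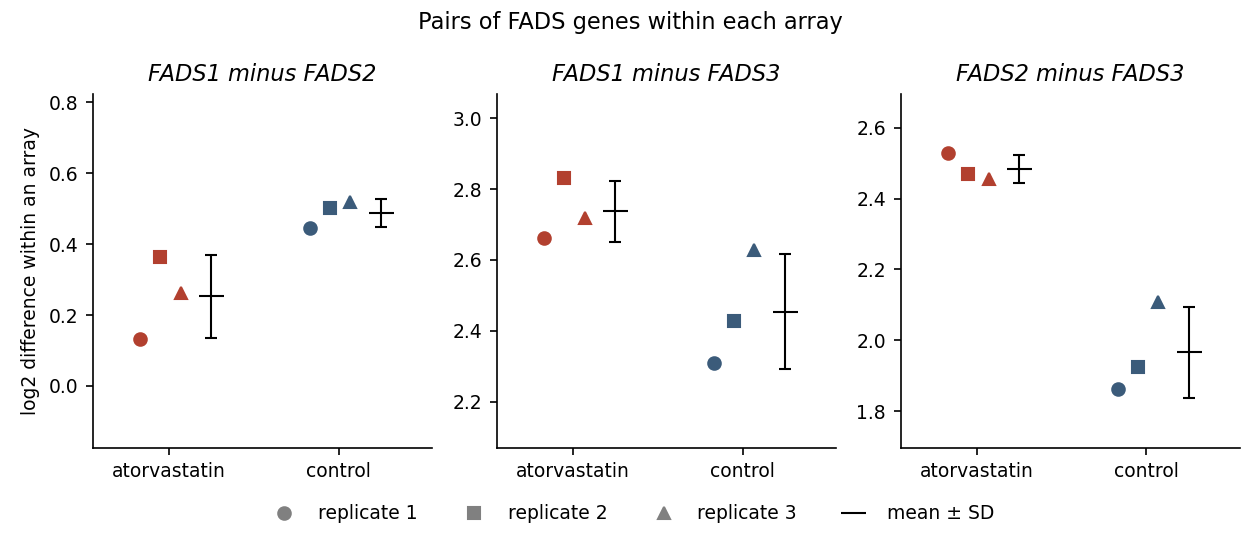
Log2 value of one FADS gene minus another within each array, atorvastatin left of control, a point per array with bars for mean ± SD (n = 3 each). The groups do not overlap in any of the 3 pairs, and their means differ by −0.24, 0.28 and 0.52.

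*SCD*, which makes oleate and palmitoleate from saturated chains, had a small difference. Its log2 values were 11.51, 11.56 and 11.36 in treated cells, against 11.27, 11.31 and 11.46 in control cells. The treated and control arrays of replicate 3 stood in the opposite order to the others. The means were 11.47 ± 0.11 in treated and 11.35 ± 0.10 in control cells (SD, n = 3 each), or 1.09-fold (95% CI 0.908 to 1.31, adjusted *p* = 1 with limma). On the log2 scale *SCD* differed by 0.13 over the 6 arrays, by 0.075 when replicate 1 was dropped, by 0.065 when replicate 2 was and by 0.24 when replicate 3 was.

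**Figure D3:**
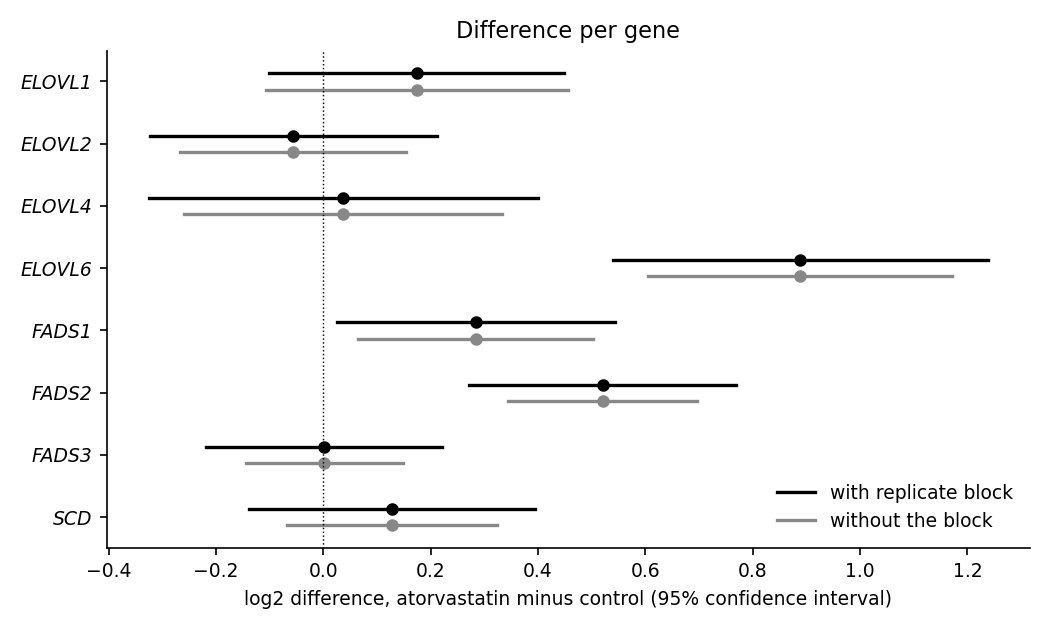
Log2 difference of each gene (point) with its 95% CI from limma, with the replicate block in black and without it in grey. The interval excludes 0 for *ELOVL6*, *FADS1* and *FADS2* in both fits before correction over all clusters, and the *FADS3* interval is centred on 0.

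**Figure D4:**
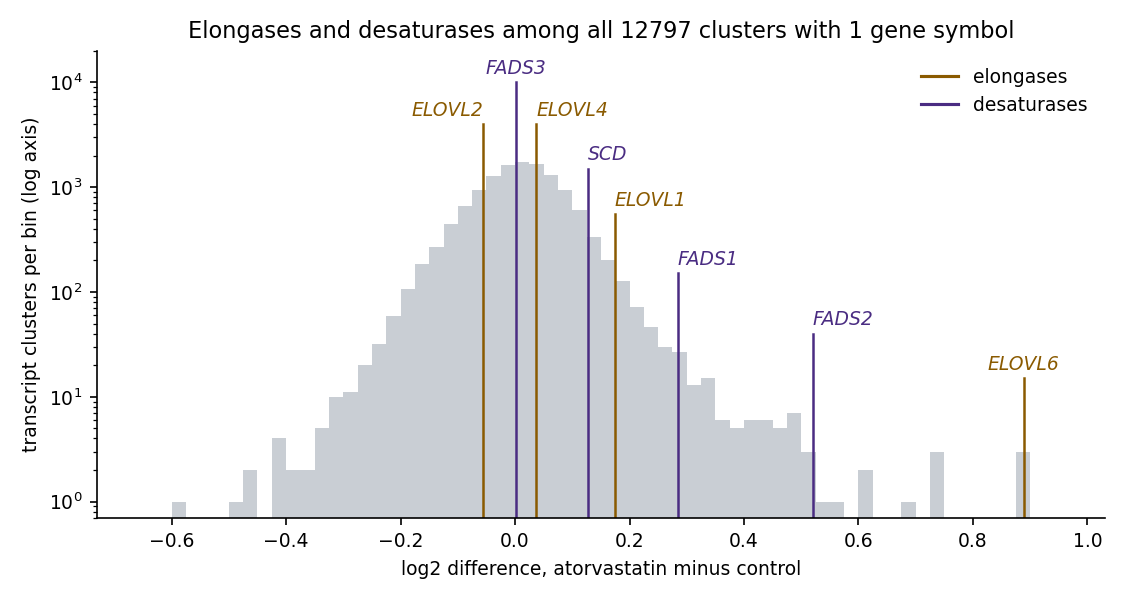
Distribution of the log2 difference over all 12797 clusters with 1 gene symbol (bars, log axis), with the 8 genes as lines whose height carries no value, elongases in brown and desaturases in purple. *ELOVL6* lies in the far upper tail at 0.89 and *FADS2* at 0.52, while *ELOVL2*, *ELOVL4* and *FADS3* lie in the central mass.

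The control arrays stood in 1 order in most of these genes. Control replicate 1 was the lowest and control replicate 3 the highest control in 6 of the 8 genes, *ELOVL4* and *FADS3* being the exceptions, against 24.8% of all clusters. Among clusters with a mean log2 value of at least 10, this order was seen in 5 of 5 elongase and desaturase genes and in 46.6% of all 459 clusters. In the 6 genes with this order, the treated minus control difference was smallest for replicate 3, as in 33.8% of all clusters and 70.4% of those at 10 or above. That difference subtracts control replicate 3, so it is not a separate observation, and these shares are over clusters of any order. The spread of log2 values over an array (SD over clusters) ran the same way, being narrowest in control replicate 1 at 1.94 and widest in control replicate 3 at 2.04, against 2.01, 2.01 and 1.95 in treated replicates 1 to 3 and 2.01 in control replicate 2. After quantile normalization, which gives all arrays 1 distribution, the log2 differences were 0.90 for *ELOVL6*, 0.53 for *FADS2* and 0.29 for *FADS1*, and *ELOVL1* also had every treated array above every control array.

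*ELOVL5*, an elongase of polyunsaturated chains, was left out of these counts, since its cluster also carries the pseudogene *RPS16P5*. The shared cluster had log2 values of 10.84, 10.79 and 10.75 in treated cells, against 10.43, 10.68 and 10.69 in control cells. The groups were apart by 0.065, and the log2 difference was 0.20 (95% CI −0.08 to 0.47, adjusted *p* = 1 with limma over every cluster). It cannot be assigned to *ELOVL5* alone. Clusters shared by *FADS2* with *FEN1* and by *FADS1* with *NCAPD2* and *SCARNA10* had log2 differences of −0.05 and −0.0018, with overlapping arrays. These values cannot be assigned to *FADS2* or *FADS1* either, and are not second measurements of those genes.

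The genes around these steps were described in 8 lists chosen with earlier results of these data known, so their counts are a description. The lists held 66 genes, of which 43 were measured. None passed the correction with limma and the block (0 of 43). An unadjusted *p* under 0.05 was found in 3, all higher, namely *ACSS2*, *FASN* and *ACLY*, against 0.75% of all clusters. These 3 passed the correction with a trended and robust variance (adjusted *p* = 8.76e-05, 0.00847 and 0.0147), as did 0.164% of all clusters. In the 43 genes the treated arrays lay wholly above the control arrays 7 times and wholly below 0 times, where the shares over all clusters were 4.57% and 2.68%. The supply of malonyl-CoA and palmitate, the substrates of elongation, accounted for 4 of the 7. Here 6 of 7 measured genes had a higher mean, with a median log2 difference of 0.21. *ACSS2*, an acetyl-CoA synthetase, differed by 0.90 on the log2 scale (adjusted *p* = 0.535 with limma), *FASN*, the fatty acid synthase, by 0.48 and *ACLY*, ATP citrate lyase, by 0.44 (adjusted *p* = 1 each). The fourth was the acetyl-CoA carboxylase *ACACA*, named after its values were seen, at 0.21.

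The later steps of the elongation cycle and the electron supply showed smaller differences. Of the 7 cycle genes 2 were measured: *HACD3*, a 3-hydroxyacyl-CoA dehydratase, had a log2 difference of 0.02 (95% CI −0.23 to 0.27), and *TECRL*, a relative of the enoyl reductase, was dim. Of the 6 measured genes of the cytochrome b5 system, 3 were higher and 3 lower on average, with overlapping arrays in all. *CYB5A*, the microsomal cytochrome b5, had a log2 difference of −0.12, *CYB5B*, its mitochondrial form, of 0.06 and *CYB5R1*, a reductase, of 0.03.

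Other desaturase relatives had no array separation. Of 5 measured, 2 were higher and 3 lower on average. *SCD5*, the second stearoyl-CoA desaturase, was dim, with a log2 difference of 0.13 (95% CI −0.15 to 0.41). *DEGS1*, the dihydroceramide desaturase, had −0.17 and *FAXDC2*, a protein of the fatty acid hydroxylase family, −0.05. Among the peroxisomal steps that complete docosahexaenoic acid, 1 of 4 measured genes had a higher mean, with a median log2 difference of −0.08. *ABCD3*, a peroxisomal acyl-CoA transporter, had −0.20, *ABCD2*, a related transporter that was dim, −0.15 and *ACAA1*, the peroxisomal thiolase, 0.08, each with overlapping arrays.

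Enzymes that use the products also overlapped, with 1 exception. The 4 measured ceramide synthases ranged from −0.03 (*CERS6*) to 0.07 (*CERS2*) in log2 difference, with *CERS3*, which was dim, at 0.04. Of 6 acyltransferases of phospholipid remodelling, *LPCAT1*, which acylates lysophosphatidylcholine, was apart by 0.0084, with a log2 difference of 0.15 (95% CI −0.08 to 0.37, adjusted *p* = 1), while *MBOAT7*, an arachidonoyl transferase, had 0.10 and *LPCAT2* −0.09.

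Of 14 regulators of these genes 9 were measured, with log2 differences from −0.12 to 0.16. *MLXIPL*, which encodes the carbohydrate-responsive factor ChREBP, had 0.16 (95% CI −0.07 to 0.38) and *SCAP*, the escort protein of SREBP, 0.12 (−0.10 to 0.34), both without overlap between the groups and with an adjusted *p* = 1. *INSIG2*, which retains SCAP in the endoplasmic reticulum, had −0.12 with overlapping arrays. *SREBF1* and *NR1H3*, which encode SREBP-1 and LXR alpha and were named after their values were seen, had log2 differences of 0.08 (95% CI −0.17 to 0.34) and −0.07 (−0.33 to 0.18).

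**Figure D5:**
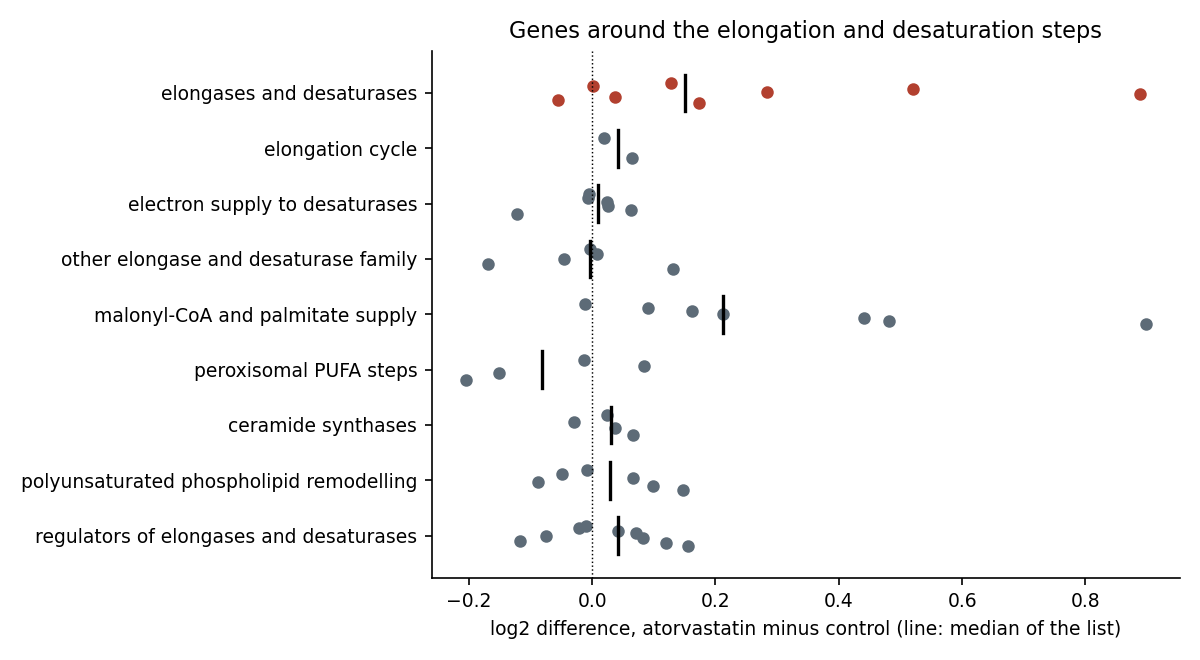
Log2 difference of each measured gene (point), atorvastatin minus control, in the elongases and desaturases (top, red) and in 8 lists around them (PUFA, polyunsaturated fatty acid), with a line at each list's median. The medians are 0.15 for the elongases and desaturases and 0.21 for malonyl-CoA and palmitate supply, and between −0.08 and 0.04 for the others.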

How the data were processed

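Total RNA (100 ng) from 6 samples of HepG2 cells was hybridized to GeneChip Human Exon 1.0 ST arrays. The authors normalized the scans by RMA in Partek Genomics Suite, kept probe sets of the core list, took their mean per gene and deposited log2 values (1.48 to 13.05), 1 per transcript cluster and array. Versions are not given in the sources used here, and the submitters' processing notes name hg18, so no coordinates of clusters are given. Of 16634 clusters, 12797 with exactly 1 symbol in GEO's platform annotation were tested; the RefSeq table of GRCh38.p14 held the Entrez ID of 12774. The cluster with the highest mean stands for a gene. Limma 3.58.1 (R 4.3.3; lmFit, eBayes) was fitted with the replicate number as a block (2 residual and 4.58 prior degrees of freedom), with Benjamini-Hochberg adjustment at 5% over all clusters. The fit was tested on simulated data with noise drawn independently for each array and cluster, so without any pattern shared across an array. Exact permutation tests, counts and figures used scipy 1.17.1, pandas 2.3.3, numpy 2.4.6 and matplotlib 3.10.9 in Python 3.11.15. The permutation tests ignored the replicate number, unlike the limma fit with the block. The number of arrays limits the precision. Alternatives were no block, a trended and robust variance, the methods' paired t-test, an unpaired t-test, a dim filter and median centring. Further ones were quantile normalization, every cluster, 1 cluster per gene, linear means, and each replicate or array left out. Text names every measured member and the 3 genes of each list with the smallest *p*, and says where another is named. Members, lists and motifs were chosen with earlier results of these data known. The RNA-seq and RT-qPCR measurements of the study were not analysed here.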

Additional observations from a re-analysis of the deposited data

How the results depend on the processing

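Of 127 alternative values of the 8 genes that had a test, 114 kept their direction and their side of the threshold, 5 passed the correction that they had missed (*ELOVL6* with a trended and robust variance and without replicate 1 or 3, *FADS2* with a trended and robust variance and without replicate 3) and 8 changed sign, all in genes near 0. In the fits without replicate 2 and without replicate 3, every gene had the same standard error, so passing there followed the size of the difference alone. The 8 ratios of linear means, which had no test, kept their direction. Leaving out 1 replicate moved *ELOVL1* between 0.091 and 0.30, *SCD* between 0.065 and 0.24, *ELOVL2* between −0.17 and 0.030, *ELOVL4* between −0.15 and 0.23 and *FADS3* between −0.016 and 0.015. *ELOVL2* was 0.030 without replicate 3 and 0.012 without the block and control replicate 3. *ELOVL4* was −0.15 without replicate 3, −0.074 without the block and atorvastatin replicate 3, and −0.039 without the block and control replicate 3. *FADS3* was −0.016 without replicate 2, and −0.020 without atorvastatin replicate 2 and −0.015 without control replicate 3, both without the block.

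With the block 0 of these genes passed the threshold. A trended and robust variance gave 2, and leaving out a replicate gave 0 to 2. Over all clusters the count was 21 under that variance, 4 without the replicate block, and 0 to 32 when a replicate or an array was left out (16 without replicate 1, 32 without replicate 3, 6 without the block and control replicate 1). The 32 clusters without replicate 3 came from a fit in which every gene had the same standard error. The methods' paired t-test gave 0, with 316 clusters at an unadjusted *p* under 0.05. The count of genes with arrays apart, 3 with all arrays, was 3 to 5 when a replicate was left out: 5 without replicate 1, with *ELOVL4* added upwards and *ELOVL2* downwards, and 5 without replicate 3, with *ELOVL1* and *SCD* added. The 3 FADS contrasts kept their direction throughout, with ranges of −0.28 to −0.20 for *FADS1* minus *FADS2*, 0.22 to 0.38 for *FADS1* minus *FADS3* and 0.45 to 0.60 for *FADS2* minus *FADS3*. No gene had another cluster with its symbol alone to compare.

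The block follows the methods, but arrays with the same number deviated from their group means with correlations of −0.46, 0.07 and −0.56. What else samples with the same number share is not stated, and these correlations cannot show it. Without the replicate block 0 of the 8 genes passed, as with it. The log2 differences are then the same, with narrower intervals in each gene except *ELOVL1*.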
